A study of Mus musculus with 136 samples.

Results

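The genes described here are 37 components of the bone morphogenetic protein (BMP) and transforming growth factor beta (TGF-beta) signalling pathway, listed by their known roles, with no measured value in the rule, at a time when earlier results of these data were known. All 37 were found among the 47643 genes of the count table. The list holds the ligands Bmp1 (named a BMP but a protease), Bmp2, Bmp4, Bmp5, Bmp6, Bmp7, Tgfb1, Tgfb2, Tgfb3 and Inhba, the receptors Bmpr1a, Bmpr1b, Bmpr2, Acvr1, Acvr1b, Acvr2a, Acvr2b, Tgfbr1, Tgfbr2 and Tgfbr3, the signal transducers Smad1 to Smad5 and the inhibitory Smad6 and Smad7, the target genes Id1 to Id4, and the modulators Nog, Chrd, Fst, Grem1, Twsg1 and Bambi. From each of 66 NOD mouse concepti at day 8.5 of gestation (E8.5), the embryo proper and its visceral yolk sac were measured as separate libraries, 132 in all. NOD mice are prone to autoimmune diabetes. Their females become diabetic spontaneously, so that diabetic and normal dams share the strain and its diabetes-prone background, and the study asked whether maternal diabetes alters expression in the conceptus. Among concepti with 5 or 6 somite pairs, 17 came from 10 litters of normal and 17 from 9 litters of diabetic dams. Among those with 7 to 9 somite pairs, 16 came from 7 normal and 16 from 6 diabetic litters, and 1 diabetic litter gave 7 of these 16. Maternal blood glucose was 105 to 164 mg/dl in the 10 normal litters and 423 to 595 mg/dl in the diabetic litters, of which 1 of 12 had only a reading above the scale of the meter. The yolk sac takes its stage from the somite pairs of its embryo. For 2 concepti the sex given for the embryo and for the yolk sac conflict. Without them 28 of 31 and 25 of 30 members were still called between tissues at the 2 stages, beside 9184 of 11653 and 9387 of 11616 genes.

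BMP and TGF-beta ligands bind pairs of type I and type II receptor kinases, and the type I kinase phosphorylates receptor-regulated SMAD proteins. Smad1 and Smad5 mainly carry BMP signals, Smad2 and Smad3 carry TGF-beta, activin and Nodal signals, and both classes enter the nucleus with Smad4, where the Id genes are well-known BMP targets and Smad6 and Smad7 feed back on the receptors. In the early conceptus these signals act in gastrulation, left-right patterning, closure of the neural tube, heart formation and the origin of blood and vessels in the yolk sac.

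Each library was made by a 3′ end method in which 1 read tag is counted per RNA molecule, so that levels of different genes can be compared without a correction for transcript length. A level is given below in CPM, the gene's counts per library size after scaling by the TMM factors of edgeR, and a difference is a log2 value ± its standard error from edgeR's quasi-likelihood test, with a p-value adjusted by the Benjamini-Hochberg method over all genes tested. A difference was called when the adjusted p was under 0.05. Library totals were 1017901 to 5658850 counts (median 2302819). The labels of the tissues held: 10 visceral endoderm markers had in embryos 1.28 to 4.76% of their yolk sac level, and 8 markers of neural tissue and paraxial mesoderm had in yolk sacs 0.346 to 7.46% of their embryo level. A sum of 5 decidua and trophoblast markers exceeded 50 CPM in 5 of 17 diabetic and 2 of 17 normal yolk sacs at 5–6 somite pairs, and in 3 of 16 diabetic and 0 of 16 normal yolk sacs at 7–9. The shallowest library, a diabetic yolk sac at 7–9 somite pairs, was the lowest of its group for 13 members and the highest for 2. Littermates share a dam, and the tests treat concepti as independent samples.

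The pathway was represented mostly by its receptors, SMADs and Id targets. Id2, Id3 and Id1, inhibitors of basic helix-loop-helix factors, had the highest levels, with embryo medians of 429, 491 and 242 CPM and yolk sac medians of 760, 302 and 325 CPM at 5–6 somite pairs. Smad4, the common partner of the other SMADs, followed with medians of 180 CPM in embryos and 141 CPM in yolk sacs. In the same embryos, the type I BMP receptor Bmpr1a had a median of 120 CPM, Smad3 112 CPM, Smad5 108 CPM, Fst 84.3 CPM and Tgfb2 73.9 CPM. Among the BMP ligands, Bmp7, Bmp2, Bmp4 and Bmp5 had embryo medians of 38.4, 33.6, 26.7 and 17.04 CPM. The remaining TGF-beta ligands were rare, with medians of 2.46 CPM for Tgfb1 and 0.500 CPM for Tgfb3. Bmp6, Tgfb3, Inhba and the BMP antagonist Chrd were left out of every test for low counts, and Chrd, which had the highest median of these 4, was at 1.85 CPM in embryos and 0.525 CPM in yolk sacs at 5–6 somite pairs. In bulk libraries, fewer cells of a type and less RNA per cell cannot be told apart, and this holds for every difference below.

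Most members tested differed between the yolk sac and the embryo of the same concepti, as did most genes. At 5–6 somite pairs, 28 of 31 members tested were called, 12 higher and 16 lower in the yolk sac, a share of 90.3% beside 79.1% of all genes tested (39.3% higher and 39.7% lower). At 7–9 somite pairs, 25 of 30 were called, 9 higher and 16 lower, a share of 83.3% beside 81.2% of all genes (38.6% higher and 42.6% lower). The members' median difference was -0.25 and -0.20, beside 0.00 and -0.04 over all genes. Scaling by library size alone shifted the median of all genes to -0.20 and -0.17 and gave 8 higher and 17 lower members at 5–6 somite pairs.

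**Figure D1:**
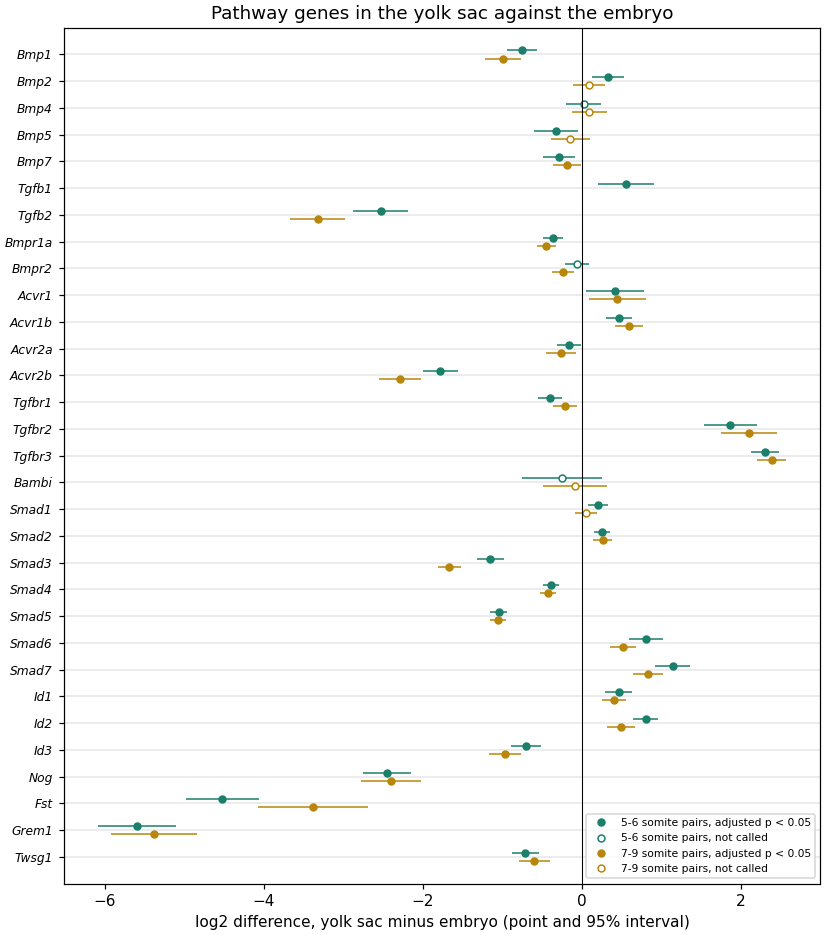
Difference between yolk sac and embryo for each member tested, as log2 of yolk sac over embryo with its 95% interval, at 5–6 (green) and 7–9 (ochre) somite pairs, with filled points for adjusted p under 0.05. Grem1, Fst, Tgfb2, Nog and Acvr2b lie farthest to the left and Tgfbr3 and Tgfbr2 farthest to the right at both stages, while Bmp4 and Bambi lie near 0 with open points.

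The extracellular antagonists were largely embryonic. Grem1, which binds and blocks BMP2 and BMP4, had levels of 1.76, 6.16 and 10.4 CPM (lowest, median and highest) in embryos at 5–6 somite pairs and 0.714, 7.74 and 14.5 CPM at 7–9. In yolk sacs its median was 0 at both stages, with highest levels of 0.738 and 2.69 CPM, and it was at 0 counts in 29 of 34 and 25 of 32 libraries. Embryo and yolk sac groups did not overlap at the earlier stage, and at the later stage they overlapped while the embryo was still the higher in 32 of 32 concepti. The fitted difference of -5.59 ± 0.25 (adjusted p = 2.02e-33) and -5.38 ± 0.27 (adjusted p = 1.66e-29) depends on the constant that edgeR adds to counts near 0.

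Fst, which encodes follistatin, an antagonist of activin and some BMPs, ranged in embryos from 46.9 to 149 CPM (median 84.3) and in yolk sacs from 0 to 30.5 CPM (median 2.22) at 5–6 somite pairs. At 7–9 it ranged from 26.4 to 121 CPM (median 68.8) and from 0 to 134 CPM (median 1.53). The tissues were fully separate at the earlier stage, and at the later stage 1 diabetic yolk sac reached the embryo range. In that library the decidua and trophoblast markers summed to 62.0 CPM. The other yolk sacs over 50 CPM of these markers, of both stages, had 1.26 to 15.4 CPM of Fst. The part of the markers in the Fst level was not tested. Fst was lower in the yolk sac by -4.52 ± 0.23 (adjusted p = 1.15e-29) and -3.38 ± 0.35 (adjusted p = 3.42e-14), and between -5.27 and -2.47 over 13 alternative analyses of the later stage. Nog, the BMP antagonist noggin of the notochord and dorsal neural tube, had embryo medians of 15.9 and 14.5 CPM and yolk sac medians of 2.26 and 2.03 CPM. Its differences were -2.45 ± 0.15 (adjusted p = 5.9e-25) and -2.39 ± 0.19 (adjusted p = 4.16e-19), and the embryo was the higher in 34 of 34 and 31 of 32 concepti. Twsg1, which modulates the binding of BMPs to chordin, was lower in the yolk sac by a smaller amount, -0.71 and -0.59, and the pseudoreceptor Bambi was not called at either stage (-0.25 and -0.08).

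Among the ligands, Tgfb2 was set apart by its embryonic level. It had 42.2, 73.9 and 114 CPM in embryos and 1.42, 9.88 and 48.4 CPM in yolk sacs at 5–6 somite pairs, and 50.9, 75.3 and 141 CPM against 1.20, 4.92 and 27.9 CPM at 7–9. The groups overlapped at the earlier stage and were separate at the later one. The difference was -2.53 ± 0.17 (adjusted p = 2.49e-22) and -3.32 ± 0.17 (adjusted p = 1.28e-28). Bmp1, a protease that cleaves procollagen and chordin, was lower in the yolk sac at both stages (-0.75 and -0.99), as was Bmp7 by less (-0.28 and -0.18), though with the conceptus as a block Bmp7 was not called at 7–9 (-0.17, adjusted p = 0.0974). Bmp4, the ligand that specifies posterior and extraembryonic mesoderm, had nearly equal medians of 26.7 CPM in embryos and 25.8 CPM in yolk sacs at 5–6 somite pairs and of 38.1 and 40.7 CPM at 7–9. Its tissue difference was 0.03 ± 0.11 (adjusted p = 0.825) and 0.10 ± 0.11 (adjusted p = 0.413), and the yolk sac was the higher in 16 of 34 and 18 of 32 concepti. Bmp2 (0.33) and Tgfb1 (0.56) were called higher in the yolk sac at 5–6 somite pairs, while at 7–9 Bmp2 was not called (0.09, adjusted p = 0.386) and Tgfb1 was not tested. Bmp5 was called lower at 5–6 somite pairs (-0.32, adjusted p = 0.0302) and not at 7–9 (-0.14, adjusted p = 0.297).

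The receptors differed in both directions. Tgfbr3, the co-receptor betaglycan, was higher in the yolk sac in every conceptus, with 6.08, 10.9 and 18.4 CPM in embryos and 21.5, 53.8 and 79.0 CPM in yolk sacs at 5–6 somite pairs. At 7–9 the levels were 4.98, 11.3 and 18.7 CPM and 38.6, 57.7 and 86.0 CPM. Embryo and yolk sac did not overlap at either stage, with differences of 2.30 ± 0.09 (adjusted p = 9.08e-37) and 2.39 ± 0.09 (adjusted p = 9.61e-37). Tgfbr2, the type II receptor that binds TGF-beta ligands, was near the limit of detection in embryos, at 0, 1.32 and 3.98 CPM, and at 1.54, 6.15 and 11 CPM in yolk sacs of 5–6 somite pairs. At 7–9 it had 0, 1.68 and 5.22 CPM in embryos and 0.727, 8.66 and 20.9 CPM in yolk sacs. The ranges overlapped, and the yolk sac was the higher in 33 of 34 and 31 of 32 concepti (1.87 ± 0.17, adjusted p = 1.07e-16, and 2.10 ± 0.18, adjusted p = 7.13e-18). The activin type II receptor Acvr2b went the other way. Its levels were 28.1, 68.5 and 124 CPM in embryos against 3.59, 19.6 and 34.1 CPM in yolk sacs of 5–6 somite pairs, then 41.8, 82.1 and 170 CPM against 6.18, 17.3 and 85.1 CPM at 7–9, where the shallowest library held the highest yolk sac value. The embryo was the higher in all 34 and all 32 concepti, although the ranges overlapped (-1.78 ± 0.11, adjusted p = 1.84e-24, and -2.29 ± 0.13, adjusted p = 1.12e-25). The other receptors called had differences of up to 0.59 in size, with Acvr1 and Acvr1b higher and Bmpr1a, Acvr2a and Tgfbr1 lower in the yolk sac at both stages, and Bmpr2 called lower at 7–9 (-0.24) and not at 5–6 (-0.06, adjusted p = 0.5), where scaling by library size called it (-0.24, adjusted p = 0.00778). The calls of Acvr1 and Acvr2a at 5–6 somite pairs were weak. Acvr2a lost its call with the conceptus as a block (-0.15, adjusted p = 0.0629), and Acvr1 in 6 of 12 alternatives (0.23 to 0.50, adjusted p up to 0.246). At 7–9 somite pairs Acvr1, Acvr2a and Tgfbr1 each lost the call in 2 of 13 alternatives. In normal pregnancies alone Acvr1 was 0.07 (adjusted p = 0.781) and Acvr2a -0.25 (adjusted p = 0.132). In diabetic pregnancies alone Tgfbr1 was -0.05 (adjusted p = 0.674). The type I receptor Bmpr1b was left out of the tissue tests for low counts, with embryo medians of 3.52 and 3.72 CPM and yolk sac medians of 0.506 and 0.765 CPM. Without a filter on low counts, edgeR called it lower in the yolk sac at both stages (-2.43 and -2.21), as it did Id4 (-1.51 and -2.23) and Tgfb3 (-1.02 and -1.89), and it called Bmp6 higher (2.73 and 2.10). Bmp6 was the higher in the yolk sac of 18 of 34 concepti at 5–6 somite pairs and in the embryo of 0, with no count in either for the rest. Chrd was then called lower at 5–6 (-1.68) and not at 7–9 (-0.50, adjusted p = 0.123), and Inhba was not called (0.44 and 0.42). These values too depend on the constant added to counts near 0.

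**Figure D2:**
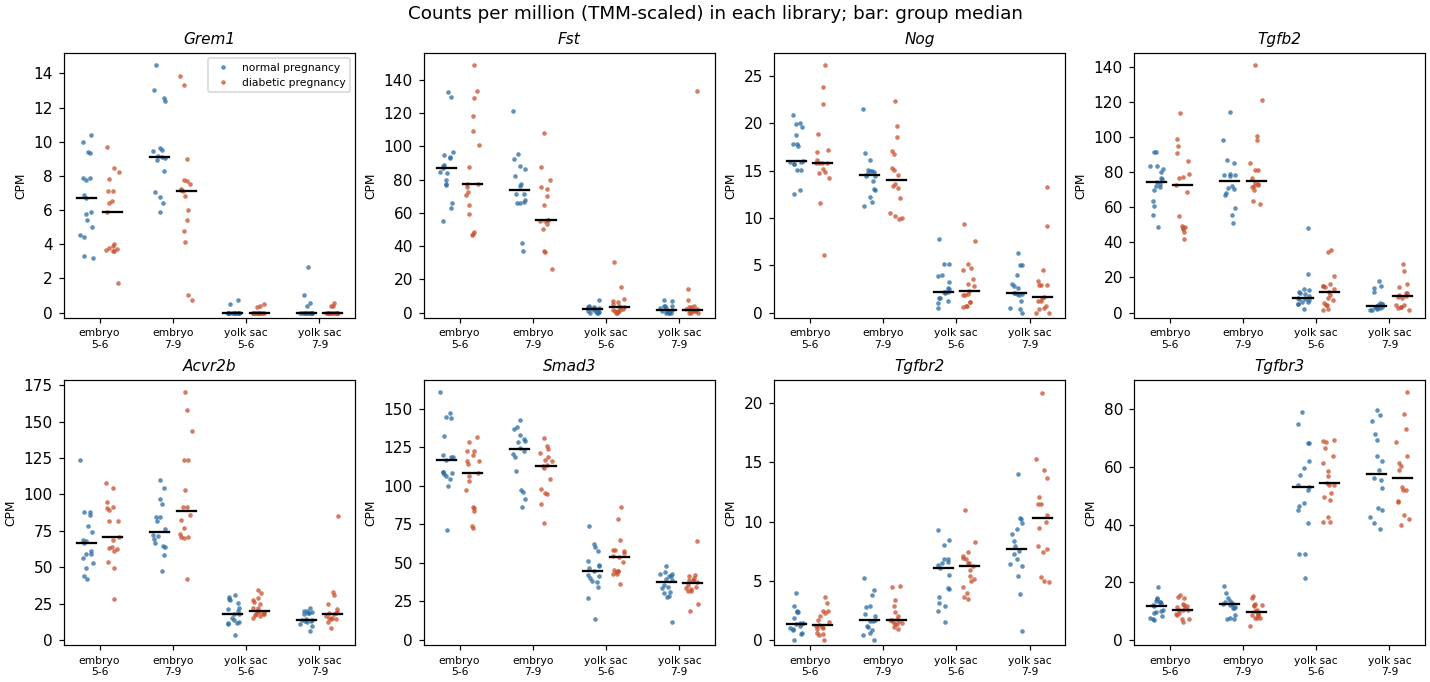
Levels of 8 members in every library, in TMM-scaled CPM on a linear axis, by tissue, somite stage and maternal condition, with the bar at the group median. Grem1, Fst, Nog, Tgfb2, Acvr2b and Smad3 sit higher in embryos and Tgfbr2 and Tgfbr3 higher in yolk sacs, and 1 diabetic yolk sac has 134 CPM of Fst.

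The transducers Smad3, Smad4 and Smad5 were lower and the inhibitory SMADs higher in the yolk sac. Smad3 had 71.6, 112 and 161 CPM in embryos and 13.3, 47.5 and 86.5 CPM in yolk sacs at 5–6 somite pairs, and 76.2, 117 and 143 CPM against 11.6, 36.8 and 64.0 CPM at 7–9. Smad5 had 88.7, 108 and 149 CPM against 33.4, 53.7 and 67.5 CPM, and then 82.2, 104 and 121 CPM against 30.5, 49.4 and 65.6 CPM. Both were the higher in the embryo of every conceptus, and Smad5 did not overlap between tissues at either stage, nor Smad3 at the later stage. Smad3 differed by -1.15 ± 0.09 (adjusted p = 8.83e-21) and -1.66 ± 0.08 (adjusted p = 4.8e-32). Smad5 differed by -1.04 ± 0.05 (adjusted p = 1.32e-30) and -1.05 ± 0.05 (adjusted p = 7.27e-30). Smad4 was lower in the yolk sac by less (-0.38 and -0.42), Smad2 slightly higher (0.26 and 0.26), and Smad1 was called higher at 5–6 somite pairs (0.21) and not at 7–9 (0.06, adjusted p = 0.444). With library size as the only scaling, Smad1, Smad2, Bmp2 and Acvr1 lost their calls at 5–6 somite pairs. Of the inhibitory SMADs, Smad7, which blocks both branches, had medians of 17.7 and 15.1 CPM in embryos and 41.7 and 28.5 CPM in yolk sacs (1.14 ± 0.11, adjusted p = 1.97e-15, and 0.83 ± 0.09, adjusted p = 1.62e-12). Smad6, which acts mainly on BMP signals, had medians of 33.3 and 28.7 CPM against 58.6 and 40.1 CPM (0.81 ± 0.11, adjusted p = 1.3e-10, and 0.52 ± 0.08, adjusted p = 2.34e-08). The ranges of both overlapped between tissues, and the yolk sac was the higher in 34 of 34 and 29 of 32 concepti for Smad7 and in 30 of 34 and 26 of 32 for Smad6. Of the Id targets, Id1 (0.47 and 0.41) and Id2 (0.80 and 0.49) were higher and Id3 (-0.70 and -0.97) lower in the yolk sac at both stages, and Id4 was left out for low counts. Endothelial markers were called higher in the yolk sac for 4 of 5 at 5–6 and 3 of 5 at 7–9 somite pairs and lower for 1 (Emcn) at each. Primitive erythroid markers were called higher for 5 of 5 at each stage and parietal endoderm markers for 4 of 4 and 3 of 3. The part of these markers in the members' differences was not tested.

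Sequence upstream of the start site is shown for 4 members with unlike patterns, which were picked after their values were seen: Grem1 (far lower in the yolk sac), Smad6 (higher there, by less), Tgfbr2 (nearly absent from the embryo) and Bmp4 (called between stages and not between tissues). Each run is the 250 bases before the RefSeq start in GRCm38.p6, 5′ to 3′ on the gene's own strand, which is the minus strand for all 4. None of them overlaps an annotated exon of GENCODE M21. The windows are chr2:113758649-113758898 for Grem1, chr9:64022060-64022309 for Smad6, chr9:116175364-116175613 for Tgfbr2 and chr14:46390670-46390919 for Bmp4. Capitals mark the letters GGCGCC, a motif bound by BMP-activated SMADs, and CAGAC, which holds the SMAD box, each searched on both strands.
Grem1: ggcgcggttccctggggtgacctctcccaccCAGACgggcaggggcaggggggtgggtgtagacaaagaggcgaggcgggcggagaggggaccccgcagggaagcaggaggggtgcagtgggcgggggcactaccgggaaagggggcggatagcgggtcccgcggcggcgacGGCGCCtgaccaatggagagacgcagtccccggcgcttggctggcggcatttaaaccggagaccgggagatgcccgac
Smad6: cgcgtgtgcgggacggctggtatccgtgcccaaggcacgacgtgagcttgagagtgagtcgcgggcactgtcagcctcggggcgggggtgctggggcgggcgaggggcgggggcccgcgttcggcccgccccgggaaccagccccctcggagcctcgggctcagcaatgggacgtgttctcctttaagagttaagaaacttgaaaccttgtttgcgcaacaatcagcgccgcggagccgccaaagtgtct
Tgfbr2: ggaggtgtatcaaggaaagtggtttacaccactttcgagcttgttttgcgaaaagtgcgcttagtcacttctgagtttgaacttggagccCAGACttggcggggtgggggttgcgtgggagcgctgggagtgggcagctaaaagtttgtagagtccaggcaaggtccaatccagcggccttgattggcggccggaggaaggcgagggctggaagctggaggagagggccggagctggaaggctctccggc
Bmp4: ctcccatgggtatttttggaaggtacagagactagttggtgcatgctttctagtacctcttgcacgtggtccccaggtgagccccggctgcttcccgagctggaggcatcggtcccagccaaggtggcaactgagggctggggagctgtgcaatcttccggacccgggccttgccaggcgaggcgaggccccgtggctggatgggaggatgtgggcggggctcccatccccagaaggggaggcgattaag

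The Grem1 window held 1 GGCGCC, 78 bases before the start, and 1 CAGAC, 219 bases before it, and the Tgfbr2 window held 1 CAGAC, 160 bases before the start. Neither motif was found in the Smad6 or Bmp4 window. Their GC content was 72.0% for Grem1, 66.8% for Smad6, 63.2% for Bmp4 and 58.4% for Tgfbr2. Over all 32851 promoter windows of this length in the RefSeq table, GGCGCC stood in 9.59% and CAGAC or its complement GTCTG in 42.2%. The 25 members in that table had 30 windows, of which 8 held GGCGCC and 13 held CAGAC or GTCTG. Counted by gene, 8 and 12 of the 25 members had such a window.

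Between the somite stages, the embryo showed a later rise of Bmp4 and a fall of Id1. In embryos 9 of 31 members tested were called, 4 higher and 5 lower at 7–9 than at 5–6 somite pairs, a share of 29% beside 29.8% of all genes tested (14.6% higher and 15.2% lower). Bmp4 had 12.8, 26.7 and 47.5 CPM at the earlier and 20.1, 38.1 and 60.5 CPM at the later stage, and its mean rose with each somite number from 25.99 ± 7.76 CPM (SD, n = 24) at 5 pairs to 45.2 ± 11.4 CPM (SD, n = 8) at 9 pairs. The stages overlapped, with a difference of 0.52 ± 0.10 (adjusted p = 8.9e-05). Grem1 (0.41 ± 0.14, adjusted p = 0.0198), Bmp1 (0.37 ± 0.08, adjusted p = 0.000307) and Acvr2b (0.29 ± 0.10, adjusted p = 0.0222) also rose. Id1 had 127, 242 and 446 CPM at the earlier and 123, 173 and 277 CPM at the later stage (-0.47 ± 0.09, adjusted p = 4.02e-05). Its lowest values were alike at both stages while the upper part of the range was lower at the later one. Fst (-0.35), the activin type I receptor Acvr1b (-0.32), Smad6 (-0.30) and Bmpr1a (-0.25) fell as well. Grem1 lost its call without the diabetic litter of 7 later embryos (0.31, adjusted p = 0.129) or without 1 normal litter (0.35, adjusted p = 0.0536). In normal pregnancies alone 3 of 29 members were called, beside 15.1% of all genes, and in diabetic pregnancies alone 9 of 29, beside 29.2%. The normal ones alone did not call Bmp4 (0.42, adjusted p = 0.0517), Bmp1 (0.20, adjusted p = 0.202), Acvr2b (0.18, adjusted p = 0.307) or Fst (-0.23, adjusted p = 0.187). Nor did they call Acvr1b (-0.18), Bmpr1a (-0.16) or Smad6 (-0.11, adjusted p = 0.536). The diabetic ones alone did not call Grem1 (0.31, adjusted p = 0.308). With somite number as a continuous covariate, Acvr2b (adjusted p = 0.155) and Smad6 (adjusted p = 0.0512) lost their calls. Chrd fell without a filter on low counts (-0.82, adjusted p = 0.0219).

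In the yolk sac, Bmp4, Tgfbr1 and Tgfbr2 rose while Smad6, Smad7, Id1, Id2 and Id3 fell. Of 27 members tested 14 were called, 4 higher and 10 lower at 7–9 somite pairs, a share of 51.9% beside 40.0% of all genes tested (21.7% higher and 18.3% lower). The members' median difference was -0.14, beside 0.01 over all genes. Bmp4 had 13.8, 25.8 and 53.6 CPM at the earlier and 17.4, 40.7 and 75.0 CPM at the later stage (0.64 ± 0.12, adjusted p = 2.17e-05). Its levels overlapped between stages, and the highest mean, 49.4 ± 14.6 CPM (SD, n = 11), stood at 7 pairs. Tgfbr2 rose by 0.69 ± 0.14 (adjusted p = 3.98e-05), from a mean of 5.69 ± 2.22 CPM (SD, n = 24) at 5 pairs to 11.1 ± 5.80 CPM (SD, n = 8) at 9 pairs. The type I receptor Tgfbr1 (0.37 ± 0.08, adjusted p = 0.000157) and Twsg1 (0.31 ± 0.09, adjusted p = 0.00344) were the other 2 that rose.

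Smad7 fell in the yolk sac with each somite number, from a mean of 42.6 ± 11.8 CPM (SD, n = 24) at 5 pairs through 36.6, 32.4 and 26.6 CPM to 23.2 ± 7.12 CPM (SD, n = 8) at 9 pairs. Its stages ranged over 11.3, 41.7 and 64.0 CPM and 7.26, 28.5 and 41.6 CPM, overlapping, with a difference of -0.53 ± 0.10 (adjusted p = 2.02e-05). Smad6 had 31.2, 58.6 and 118 CPM and then 21.8, 40.1 and 63.8 CPM (-0.54 ± 0.10, adjusted p = 7.73e-06). Id1 had 226, 325 and 518 CPM and then 140, 218 and 400 CPM (-0.48 ± 0.08, adjusted p = 8.24e-07), again with overlapping ranges. Id2 (-0.43 ± 0.09, adjusted p = 5.66e-05), Id3 (-0.42 ± 0.09, adjusted p = 0.000253) and Smad3 (-0.43 ± 0.09, adjusted p = 0.000159) fell by like amounts. The receptors Bmpr1a, Acvr2a and Bmpr2 and the ligand Bmp2 fell by 0.21 to 0.28 on the log2 scale. Leaving out single litters ended the calls of Bmp2 (5 of 22 litters, adjusted p up to 0.0787), Bmpr2 (3 of 22, up to 0.0584) and Acvr2a (the diabetic litter of 7 later concepti, adjusted p = 0.175). Without the yolk sacs with over 50 CPM of decidua markers, 11 of 28 members were called, 3 higher and 8 lower. Twsg1 (0.20, adjusted p = 0.0876), Bmp2 (-0.26, adjusted p = 0.0823), Bmpr2 (-0.22, adjusted p = 0.063) and Acvr2a (-0.24, adjusted p = 0.0609) then lost their calls, and Smad1 (-0.25, adjusted p = 0.0133) gained one. Of all genes, 3519 of 10817 were called in that fit. With litter as a random block Bmpr2 lost its call (-0.19, adjusted p = 0.0749), and Bambi (0.87, adjusted p = 0.00582), Bmp7 (0.24, adjusted p = 0.0347) and Tgfb2 (-0.71, adjusted p = 0.0308) gained one.

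**Figure D3:**
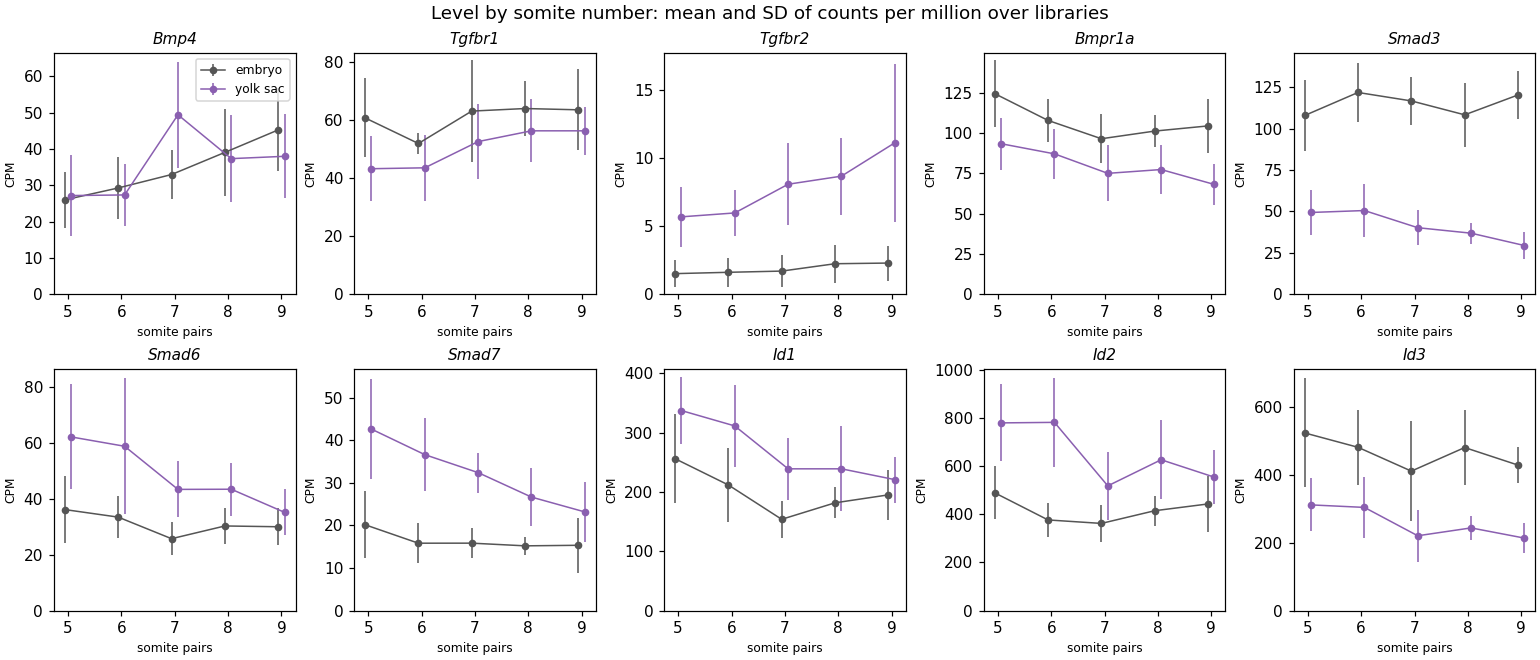
Mean level and SD in TMM-scaled CPM on linear axes, by the number of somite pairs, for 10 members in embryo (grey) and yolk sac (violet), over 24, 10, 11, 13 and 8 libraries per tissue at 5, 6, 7, 8 and 9 pairs. Yolk sac Smad7 steps down from 42.6 to 23.2 CPM and embryo Bmp4 up from 25.99 to 45.2 CPM, with overlapping SDs between neighbouring somite numbers.

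Blood and endoderm markers rose in the yolk sac between the same stages. Primitive erythroid markers were called higher for 4 of 5 (median difference 0.80), their summed median going from 3596 to 7651 CPM in normal and from 3807 to 7953 CPM in diabetic yolk sacs. Visceral endoderm markers were called higher for 8 of 10 and lower for 1 (median 0.59), and endothelial markers higher for 2 of 5 and lower for 1. With a score of the erythroid markers in the fit, 5 of 27 members were past the threshold, 3 higher and 2 lower, the latter being Id1 and Id2, beside 11% of all genes (40.0% without the score). Smad7 then differed by -0.12 (adjusted p = 0.6), Smad6 by -0.17 (adjusted p = 0.421), Smad3 by -0.20 (adjusted p = 0.348) and Id3 by -0.27 (adjusted p = 0.197), and Bmp2 turned to 0.07 (adjusted p = 0.813). That score moves with the stage itself, so the 2 cannot be told apart in this fit. In normal pregnancies alone 4 of 27 members were called, all lower (Smad6, Id1, Id2 and Id3), beside 7.84% of all genes. Of the members that rose, Bmp4 (0.42, adjusted p = 0.128), Tgfbr2 (0.52, adjusted p = 0.107), Tgfbr1 (0.21, adjusted p = 0.293) and Twsg1 (0.24, adjusted p = 0.268) were not called. Of those that fell, Smad7 (-0.40, adjusted p = 0.0976), Smad3 (-0.34, adjusted p = 0.144) and Bmpr1a (-0.23, adjusted p = 0.128) were not. Nor were Bmp2 (-0.23, adjusted p = 0.393), Bmpr2 (-0.14, adjusted p = 0.581) and Acvr2a (-0.10, adjusted p = 0.702). In diabetic pregnancies alone 15 of 27 were called, 4 higher and 11 lower, beside 33.7% of all genes. In embryos, the erythroid markers tested were called higher for 3 of 3 (median 4.25) and cardiac markers for 3 of 4 (median 0.61). The part of these markers in the embryo differences was not tested. A fit of the embryos with a score of the visceral endoderm markers called 10 of 31 members, beside 30.3% of all genes.

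The difference between tissues changed with stage for Smad3. Its embryo level was similar at both stages (0.03 ± 0.06, adjusted p = 0.755) and its yolk sac level fell, so that the tissue difference grew by -0.46 ± 0.11 (adjusted p = 0.00753). It was the 1 of 33 members tested to be called, beside 3.23% of all genes, and without the yolk sacs with over 50 CPM of decidua markers the value was -0.35 (adjusted p = 0.0871). Tgfb2 had -0.77 ± 0.25 (adjusted p = 0.0645) and Acvr2b -0.46 ± 0.18 (adjusted p = 0.144), and without the shallowest library Acvr2b had -0.59 (adjusted p = 0.0174). With litter as a random block Tgfb2 was called beside Smad3 (-0.81, adjusted p = 0.0431).

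Between diabetic and normal pregnancies, no member passed the threshold in either tissue at either stage. In embryos of 5–6 somite pairs edgeR called 0 of 30 members and 1 had an unadjusted p under 0.05, beside 1.46% and 21.02% of all genes. DESeq2 called 1 member there and 397 of 11004 genes. In embryos of 7–9 somite pairs edgeR called 0 of 29 and 6 had an unadjusted p under 0.05, beside 9.09% and 27.44% of all genes. DESeq2 called 0 members there and 1194 of 10628 genes. In yolk sacs 0 of 27 were called at each stage by edgeR and 0 by DESeq2, with 2 and 4 at an unadjusted p under 0.05. Of all genes, edgeR called 0% at 5–6 and 0.0194% at 7–9 somite pairs in yolk sacs, and 8.42% and 10.88% had an unadjusted p under 0.05. DESeq2 called 1 of 10250 and 18 of 10317 genes. At 5–6 and 7–9 somite pairs, the members' median difference was 0.04 and -0.13 for embryos, and 0.02 and 0.00 for yolk sacs.

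**Figure D4:**
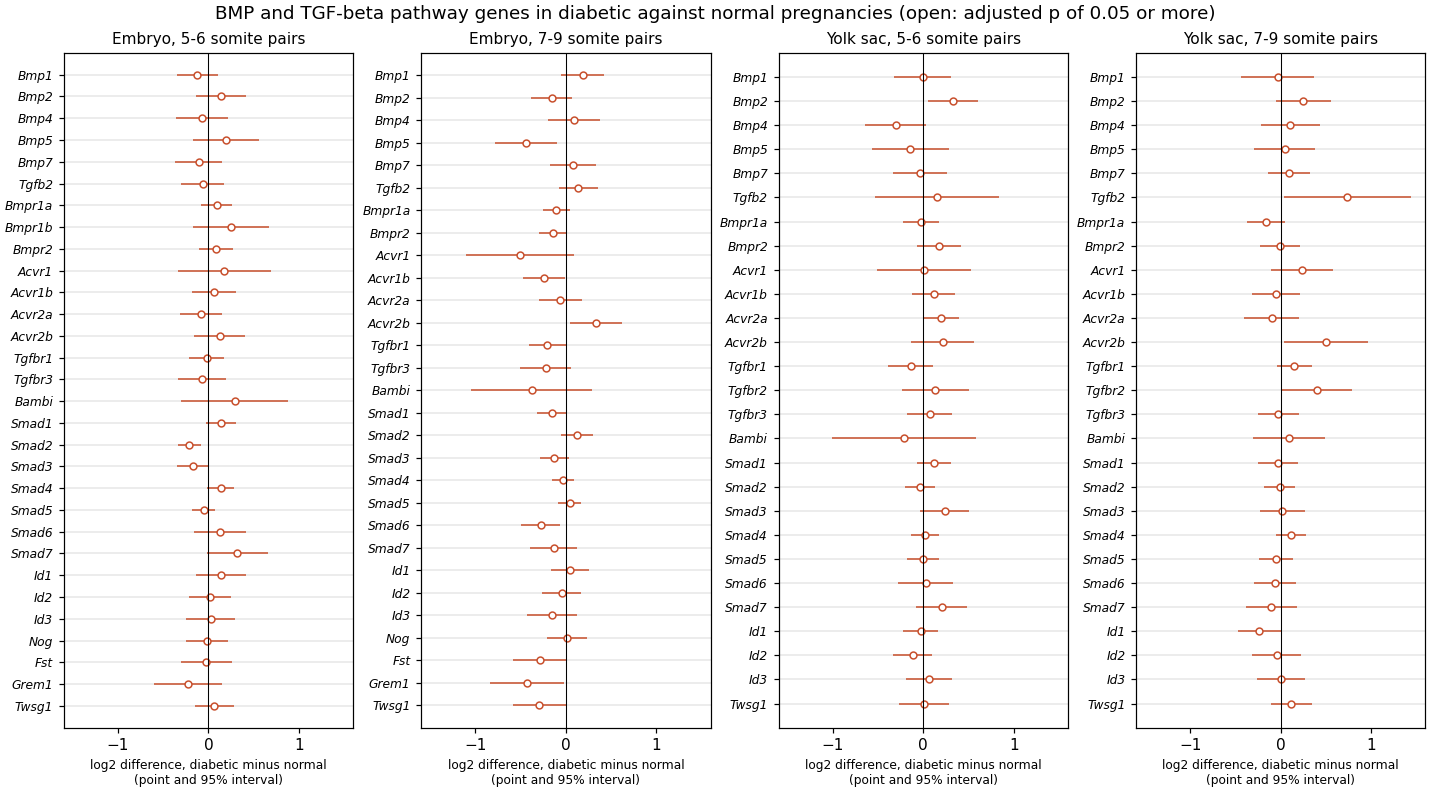
Difference between diabetic and normal pregnancies for each member tested, as log2 with its 95% interval, in the 2 tissues at the 2 stages. All points are open, since none had an adjusted p under 0.05, and the widest intervals belong to Tgfb2, Bambi and Acvr1.

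Smad2, the transducer of TGF-beta, activin and Nodal signals, came closest to the threshold. At 5–6 somite pairs embryos of normal dams had 57.1, 70.6 and 78.9 CPM and those of diabetic dams 47.0, 61.5 and 76.0 CPM, with most diabetic embryos below the normal median and overlapping ranges. The difference was -0.21 ± 0.06 (95% interval -0.34 to -0.08, adjusted p = 0.0724), and DESeq2 and scaling by library size alone called it. The other 29 of 31 alternatives did not, among them litter as a random block and counts summed per litter. Over all 31 the value lay between -0.25 and -0.17 and the adjusted p between 0.0375 and 0.458. At 7–9 somite pairs the levels were 45.8, 57.7 and 75.6 CPM against 43.8, 61.5 and 82.4 CPM (0.12 ± 0.09, adjusted p = 0.367). By litter, the means ranged from 62.0 to 78.9 CPM in 10 normal litters and from 52.1 to 72.9 CPM in 9 diabetic litters at the earlier stage, and from 53.1 to 73.2 CPM in 7 and from 51.0 to 68.2 CPM in 6 litters at the later stage. The difference between the stages was itself called (0.35 ± 0.11, adjusted p = 0.0316, edgeR). Smad2 was the 1 of 31 members called in this test, a share of 3.23% beside 8.70% of all genes. The value lay between 0.31 and 0.35 over 9 alternatives and the adjusted p between 0.0271 and 0.0701, losing the call with litter as a random block (0.31, adjusted p = 0.054) and without a filter on low counts (0.35, adjusted p = 0.0701). With that block Bmp5 was called in its place (-0.74, adjusted p = 0.0492). In yolk sacs 0 of 27 members were called in the same test by edgeR and 0 had an unadjusted p under 0.05, beside 0% and, unadjusted, 5.84% of all genes, and DESeq2 called 0.

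**Figure D5:**
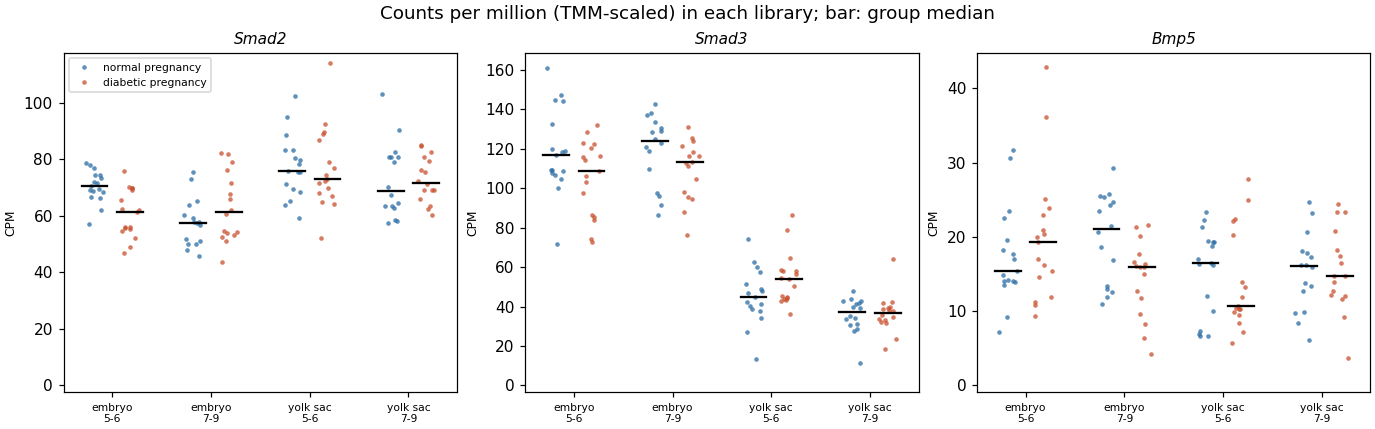
Levels of Smad2, Smad3 and Bmp5 in every library, in TMM-scaled CPM on a linear axis from 0, by tissue, somite stage and maternal condition, with the bar at the group median. The Smad2 medians in embryos are 70.6 (normal) and 61.5 CPM (diabetic) at 5–6 somite pairs and 57.7 and 61.5 CPM at 7–9, with overlapping points in each pair of groups.

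In embryos of 7–9 somite pairs the 6 members with an unadjusted p under 0.05 were a ligand, activin receptors, an inhibitory SMAD and modulators, with no transducing SMAD or Id gene among them. Bmp5, a ligand of the BMP7 subfamily, had 10.97, 21.05 and 29.3 CPM in normal and 4.29, 15.9 and 21.6 CPM in diabetic pregnancies (-0.44 ± 0.17, adjusted p = 0.0913). Smad6 had 21.2, 31.7 and 40.8 CPM against 15.7, 26.04 and 36.3 CPM (-0.28 ± 0.11, adjusted p = 0.0918). Grem1 had 5.92, 9.13 and 14.5 CPM against 0.714, 7.14 and 13.8 CPM (-0.43 ± 0.20, adjusted p = 0.165). All 3 had overlapping groups with lower diabetic medians. Acvr2b had the opposite sign, with 47.6, 73.9 and 110 CPM against 41.8, 88.7 and 170 CPM (0.33 ± 0.14, adjusted p = 0.129). Acvr1b (-0.24, adjusted p = 0.166) and Twsg1 (-0.29, adjusted p = 0.18) were the other 2. Without the diabetic litter that supplied 7 of 16 embryos, Grem1 (-0.78, adjusted p = 0.034) and Smad6 (-0.44, adjusted p = 0.026) passed the threshold, 2 of 30 members beside 969 of 10908 genes. With the number that opens each library title, of 2 digits, as a covariate, Bmp5 (-0.56, adjusted p = 0.031), Grem1 (-0.63, adjusted p = 0.0361), Smad6 (-0.34, adjusted p = 0.047) and Acvr1b (-0.33, adjusted p = 0.0473) did. These were 4 of 29 members, beside 1714 of 10628 genes. What the title number stands for is not stated in the labels.

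Tgfb1, the founding TGF-beta ligand, was left out of this test for low counts, with a mean of 3.81 counts in normal and 8.81 in diabetic embryos. Its levels were 0, 1.35 and 3.71 CPM in normal and 0.426, 3.76 and 8.16 CPM in diabetic embryos of 7–9 somite pairs, overlapping, with litter means of 0.467 to 2.82 CPM in 7 normal and 1.59 to 6.58 CPM in 6 diabetic litters. With no filter on low counts the difference was 1.23 (adjusted p = 0.0127, edgeR), while at 5–6 somite pairs it was 0.20 (adjusted p = 0.72), and in yolk sacs 0.16 (adjusted p = 0.834) and 0.13 (adjusted p = 0.864). Without a filter, the tests of stage by diabetes in embryos (1.03, adjusted p = 0.187) and of tissue by diabetes at 7–9 somite pairs (-1.10, adjusted p = 0.222) did not call Tgfb1. Primitive erythroid markers had a median difference of 1.23 in the same embryos, with 0 of 3 tested called, and their part in the Tgfb1 value was not tested.

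In yolk sacs the members with an unadjusted p under 0.05 were Bmp2 and Acvr2a at 5–6 and Acvr2b, Tgfb2, Tgfbr2 and Id1 at 7–9 somite pairs. Bmp2, a ligand needed in extraembryonic mesoderm, had 10.8, 39.4 and 59.2 CPM in normal and 33.4, 49.3 and 69.2 CPM in diabetic yolk sacs (0.33 ± 0.14, adjusted p = 0.553). Tgfb2 had 1.20, 3.96 and 17.8 CPM against 1.23, 9.31 and 27.9 CPM (0.74 ± 0.35, adjusted p = 0.433), and Tgfbr2 0.727, 7.71 and 13.98 CPM against 4.93, 10.3 and 20.9 CPM (0.40 ± 0.19, adjusted p = 0.433). The groups overlapped in each case. Decidua and trophoblast markers had medians of 6.86 CPM in normal and 36.1 CPM in diabetic yolk sacs at 5–6 somite pairs and of 5.60 and 13.7 CPM at 7–9, and without the yolk sacs over 50 CPM still 0 members were called at either stage.

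Whether maternal diabetes acted differently on the tissues was tested as an interaction. At 5–6 somite pairs edgeR called 0 of 31 members, with 2 at an unadjusted p under 0.05 and 0 called by DESeq2, beside 0% and, unadjusted, 7.665% of all genes. At 7–9 DESeq2 called 0 of 30 members and 219 of 11577 genes. There edgeR called 0 of 30, with 6 at an unadjusted p under 0.05, beside 0.389% and, unadjusted, 17.67% of all genes. The largest of these was Fst (2.51 ± 0.69, adjusted p = 0.0613), which was 2.56 (adjusted p = 0.048) without the shallowest library and 0.07 (adjusted p = 0.97) without the yolk sacs over 50 CPM of decidua markers, the diabetic yolk sac with 134 CPM of Fst among them. The part of that 1 library alone was not tested.

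A further list of 60 genes of the same pathways, other ligands, receptors, co-receptors, antagonists and nuclear partners, gave the wider picture. Between diabetic and normal pregnancies 1 of 26 tested was called in embryos of 5–6 somite pairs, beside 1.46% of all genes. It was the SMAD co-repressor Tgif2 (-0.43 ± 0.11, adjusted p = 0.0358). At 7–9 somite pairs 2 of 24 were called, beside 9.09% of all genes. They were the endothelial type I receptor Acvrl1 (0.62 ± 0.19, adjusted p = 0.0343) and the SMAD co-repressor Skil (-0.28 ± 0.09, adjusted p = 0.0353). These calls treat littermates as independent. With counts summed per litter, 0 of 11706 genes were called at 5–6 somite pairs, so Tgif2 was not, and 8 of 12064 at 7–9. With litter as a random block, 4 of 11004 and 314 of 10628 genes were called. In yolk sacs 0 of 20 and 0 of 18 were called by edgeR, with 1 and 4 at an unadjusted p under 0.05. Of all genes 0% and 0.0194% were called there, and 8.42% and 10.88% had an unadjusted p under 0.05. Between tissues 25 of 29 and 21 of 24 were called, 9 and 6 higher in the yolk sac. Of all genes 79.1% and 81.2% were called, 39.3% and 38.6% higher. Over 4-fold lower in the yolk sac at both stages were Gdf10 (-6.05 and -6.42), Rgma (-4.81 and -5.26), Lefty2 (-4.69 and -3.80), Chrdl1 (-4.21 and -4.23), Atoh8 (-3.41 and -3.36) and Gdf11 (-3.03 and -3.56). Gdf10 and Gdf11 are ligands, Rgma is a BMP co-receptor, Lefty2 a Nodal antagonist and Chrdl1 a BMP antagonist. Tgif1 (-2.17 and -1.99) was past 4-fold at 5–6 somite pairs, where Tdgf1 (-3.97), Bmper (-2.69) and Bmp8b (3.44) were also past it and at 7–9 were not tested. Smad9, a BMP-responsive SMAD, was over 4-fold higher in the yolk sac (2.42 and 2.41), opposite to Smad5. Between stages 7 of 28 were called in embryos, 4 higher, beside 29.8% of all genes. In yolk sacs 6 of 23 were called between stages, 2 higher, beside 40.0% of all genes.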

How the data were processed

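RNA of single embryos and yolk sacs was sequenced from 3′ ends with molecular identifiers, and the authors deposited raw counts of molecules per gene, made with STAR and HTSeq on mm10 per the labels (versions not stated), without normalization. The 132 libraries were grouped by the tissue, somite stage and maternal condition in the labels, and 4 duplicate libraries were left out of the tests. Genes with low counts were removed by filterByExpr (minimum count 10), and each comparison was fitted with edgeR 4.0.16 (TMM, glmQLFit and glmQLFTest) under R 4.3.3 on all genes, with calls at an adjusted p under 0.05. Standard errors are the log2 difference over the square root of F. Some of the fits were run on simulated counts without a litter effect, which could not test the treatment of littermates as independent. Alternatives used DESeq2 1.42.0, limma 3.58.1 (voom, with litter as a random block), other scalings and filters, covariates, and single litters left out. Alternatives chosen after seeing the data left out the shallowest library or the yolk sacs with over 50 CPM of decidua markers.

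The 37 members, the list of 60 further genes and the marker lists were chosen with earlier results of these data known. Every member is accounted for, those called or past a 2-fold difference with values. Of the 60 genes, those called between diabetic and normal pregnancies or past 4-fold between tissues are named. Embryo and yolk sac of 1 conceptus share its label, so tissue comparisons were also fitted with the conceptus as a block. The median correlation of their deviations from the group means was 0.101 over 34 pairs at 5–6 and 0.0437 over 32 pairs at 7–9 somite pairs. Sequences come from RefSeq (GRCm38.p6), which held 25 of 37 members, and exons from GENCODE M21. For several members an annotated gene lies on the opposite strand, among them Bmp4, Tgfb2 and Fst, and whether strand was used in counting is not given in the sources used here.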

Additional observations from a re-analysis of the deposited data

Results flagged for a closer look

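The difference between diabetic and normal embryos was unlike at the 2 stages for Smad2, and the test of that difference itself passed the threshold (0.35 on the log2 scale, adjusted p = 0.0316, edgeR's quasi-likelihood test). The tissue difference of Smad3 was unlike at the 2 stages by the same kind of test (-0.46, adjusted p = 0.00753). Both pairs of values stand in the report with the alternatives under which the call was lost.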

How the results depend on the processing

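Of 264 counts of members recomputed under alternatives, 251 stayed within 1.5 times the reported count and 13 moved. Many of these counts were 0 in comparisons that called few genes or none, where little could move. A count can also stay while the member changes. This was so for stage by diabetes in embryos with litter as a random block, where Bmp5 was called in place of Smad2. Between stages, normal pregnancies alone gave 3 called members in embryos and 4 in yolk sacs, and an erythroid marker score gave 5 in yolk sacs, with Bmp2 reversed to 0.07. Between diabetic and normal embryos of 5–6 somite pairs, DESeq2 and library size alone each gave 1. At 7–9, no filter gave 1 and the title number as a covariate 4. Stage by diabetes in embryos gave 0 without a filter. Tissue by diabetes at 7–9 gave 1 without the shallowest library. Tissue by stage gave 2 with litter as a random block, 2 without the shallowest library and 0 without the yolk sacs with over 50 CPM of decidua markers. Leaving out each litter in turn gave 8 to 13 called members between stages in embryos and 12 to 18 in yolk sacs, and between diabetic and normal pregnancies 0 to 2 in embryos of 7–9 somite pairs, the 2 without the diabetic litter of 7, and 0 to 0 in the other 3. Called in every alternative were 21 of 28 and 19 of 25 members between tissues, 1 of 9 (Id1) between stages in embryos and 2 of 14 (Id1 and Id2) in yolk sacs.

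With the conceptus as a replicate block, 27 of 31 members were called between tissues at 5–6 and 24 of 30 at 7–9 somite pairs. Of all genes, 9284 of 11677 and 9384 of 11577 were called. The block lost Acvr2a at the earlier and Bmp7 at the later stage and changed no other call. Diabetic and normal concepti share no dam and could not be paired. Members near 1 CPM were left out by the filter on low counts, and tests without it are given in the report. For Inhba, with 0 counts in most libraries, no difference was detectable at these depths. Duplicate libraries of 2 concepti differed by a median of 0.047 to 0.203 on the log2 scale over the members, and by up to 1.27 for Grem1.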

Other observations

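Inhba, the activin beta A subunit, was left out of every test for low counts. It was at 0 in 17 of 17 normal yolk sacs of 5–6 somite pairs and was counted in 6 of 17 diabetic ones, reaching 1.98 CPM (adjusted p = 0.378 without a filter, edgeR). Fst in the yolk sacs of the same stage had medians of 1.96 CPM in normal and 3.26 CPM in diabetic pregnancies (adjusted p = 0.56 without a filter, edgeR).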
